A study of Homo sapiens with 5 samples.

Results

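Many human genes end in a last exon that can be cut and polyadenylated at several places, and the sites described here are those that lie between the first and the last of them. Members were chosen from reads summed over the 5 libraries: within each gene, last exon poly(A) sites outside the mitochondrial genome with 10% or more of the gene's last exon reads were kept. Genes with 3 or more kept sites and 200 or more reads were retained, and every kept site that was neither first nor last along the strand was a member. There were 1427 such middle sites in 1161 genes, out of 102332 last exon sites and 272248 distinct sites in all. Of the genes, 917 had 3 kept sites and thus 1 middle site, 222 had 4 and 22 had 5. Each middle site is read beside the first and the last kept site of its gene.

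Cleavage and polyadenylation set where an mRNA ends. A site near the stop codon gives a short 3′ untranslated region and a site farther along gives a long one, which can carry more binding sites for microRNAs and RNA-binding proteins. Cleavage factor Im (CFIm) helps to choose among them. Its small subunit CFIm25 (gene NUDT21) binds UGUA in RNA, and its large subunit is CFIm68 (gene CPSF6) or CFIm59 (gene CPSF7). Both large subunits carry arginine and serine rich domains like those of SR splicing proteins. Loss of CFIm25 or CFIm68 is known to shift many last exons to upstream sites.

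HEK293T, the cell line used throughout, derives from human embryonic kidney. The libraries came from 2 CFIm68 knockout cell lines and 2 CFIm59 knockout cell lines, both made with CRISPR/Cas9, and from 1 wild type control. The labels call the lines of a genotype different cell lines, without saying whether each is a clone, and they do not give the edited exons. Each library counts oligo(dT)-primed reads at the junction of an mRNA and its poly(A) tail, and each is bulk RNA of a culture, so fewer cells using a site and lower use per cell cannot be told apart.

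Libraries held 2727728 and 2078376 reads in the CFIm68 knockout lines, 1673687 and 2585923 in the CFIm59 knockout lines and 2924266 in the control. Middle sites took 67282 and 55294 reads in the CFIm68 knockout lines, 35710 and 51130 in the CFIm59 knockout lines and 66399 in the control. The median middle site had 25 and 20 reads in the CFIm68 knockout lines, 13 and 18 in the CFIm59 knockout lines and 23 in the control, so single shares of many members are imprecise. As a check of the labels, CPSF6 stood at 48.0 and 45.7 CPM in the CFIm68 knockout lines, against 120 CPM in the control (log2 -1.35, adjusted p = 0.000512, edgeR). For CPSF6 and CPSF7, CPM are read counts scaled to the library total as adjusted by the TMM method. CPSF7 stood at 68.4 and 55.5 CPM in the CFIm59 knockout lines, against 59.8 CPM in the control (adjusted p = 0.947), so its 3′ end reads do not check that label. In the CFIm68 knockout lines CPSF7 rose to 128 and 204 CPM (log2 1.47, adjusted p = 0.000925). All 8 HEK293T markers had reads in every library. For the markers, CPM are scaled to the library total without that adjustment. Summed over the 8 markers of other cell types, the CFIm68 knockout lines held 10.3 and 10.1 CPM, the CFIm59 knockout lines 9.56 and 15.1 CPM, and the control 34.9 CPM. Albumin made 23.9 CPM of the control's sum. COL1A1, a fibroblast marker, stood at 8.07 and 10.1 CPM in the CFIm68 knockout lines, 8.96 and 12 CPM in the CFIm59 knockout lines and 10.3 CPM in the control. It made most of the sum in each knockout line. In the control KRT8 (9.92 CPM) and PAX2 (4.1 CPM) lay below COL1A1 and the other HEK293T markers above it, so level alone does not separate the lists. PECAM1 and HBB were at 0 in all 5 libraries, and the part of the other markers in the site results was not tested.

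The summed share that chose the members had a median of 20.9% and a highest value of 72.9%. Just inside the limit lay sites of UBE3B with 27 of 270 reads, SUGT1 with 68 of 680 and FASTKD2 with 32 of 320. Just outside it lay sites of FDX1 with 76 of 762 reads (9.974%), ACTR8 with 36 of 362 (9.945%) and ZBTB44 with 56 of 564 (9.929%). Between the outer sites of these genes, 433 further sites held 5% to under 10%, and 171 members held 10% to under 12%. Every one of the 1427 members entered the tests. For 72 of them, the gene has a site that is also listed under another gene.

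In the 917 genes with 3 kept sites, the middle site held about the same part of the kept reads in all 5 libraries, while the outer sites exchanged reads around it. The mean middle share was 33.1% and 34.2% in the CFIm68 knockout lines, 31.4% and 31.5% in the CFIm59 knockout lines and 32.8% in the control. The mean first share was 41.5% and 39.3% in the CFIm68 knockout lines, 20.9% and 20.9% in the CFIm59 knockout lines and 26.3% in the control. The mean last share was 25.4% and 26.6% in the CFIm68 knockout lines, 47.6% and 47.5% in the CFIm59 knockout lines and 40.9% in the control. The middle site was the most used of the 3 in 293 and 299 genes in the CFIm68 knockout lines, in 275 and 262 in the CFIm59 knockout lines and in 279 in the control. The first site led in 418 and 381 genes in the CFIm68 knockout lines and in 201 in the control, whereas the last site led in 494 and 506 genes in the CFIm59 knockout lines and in 421 in the control. These are levels of the kind the choice of members used, given without a test.

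**Figure D1:**
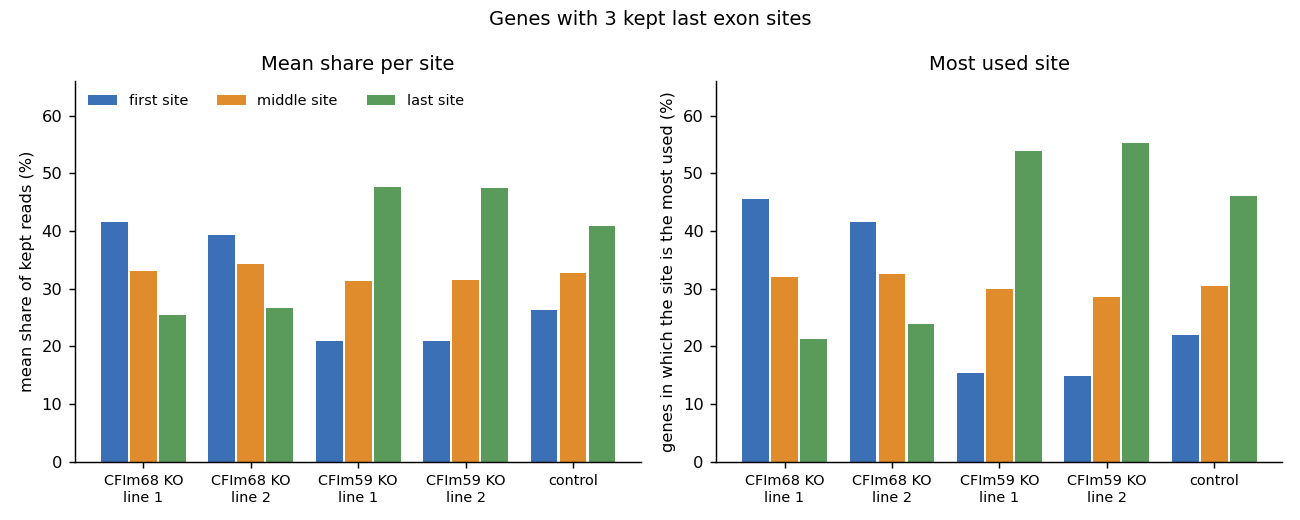
Left, mean share of a gene's kept reads (%) at its first, middle and last site in each library, over the 917 genes with 3 kept sites; right, the percent of these genes in which each site is the most used. The middle bars stay between 31.4% and 34.2% on the left, while first and last bars trade places between the CFIm68 knockout lines and the other 3 libraries.

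That mean hid large changes in both directions. Each site's reads were tested against the reads at the other kept sites of its gene by the quasi-likelihood test of edgeR, adjusted by Benjamini-Hochberg over all 8227 kept sites of 3400 genes and a threshold of 0.05. The log2 values below are changes in the ratio of the site to the rest of its gene. In the CFIm68 knockout against the control, 217 middle sites rose (15.2%) and 184 fell (12.9%); over all kept sites 19.3% rose and 19.9% fell. At the first sites of the same genes 488 rose (42.0%) and 26 fell, and at the last sites 30 rose and 576 fell (49.6%). The middle change over all members had a median of 0.467 percentage points and quartiles of -8.36 and 10.2. The median was 21.6 points over the members that rose and -22.1 points over those that fell. In every called member both CFIm68 knockout lines lay on the same side of the control. DESeq2 called fewer members, with 101 higher and 92 lower, and edgeR's exon-level test for differential splicing called 113 and 106.

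The reads that chose the members include those of the knockouts, so the choice bears on which directions can be seen. Of the 217 middle sites that rose, 84 held under 10% of the kept reads in the 3 other libraries, and of the 184 that fell, 68 held under 10% in the CFIm68 knockout lines. Those sites passed the minimum only through the libraries in which they are high, so the direction is built into their choice. Where one is named below its values are a description without a test. The minimum was set on all last exon reads of a gene, of which kept reads are a part, so these are the lowest possible counts. Members a little above 10% of the kept reads may be alike, such as HNRNPA3 (11.3%) and PPP2R1B (12.3%) in the CFIm68 knockout lines. The same limit holds for such counts in the other comparisons. When the site minimum was put on the mean of the 3 group shares instead, an alternative chosen after seeing the data, 187 rose and 215 fell, so neither direction is called the more frequent one.

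**Figure D2:**
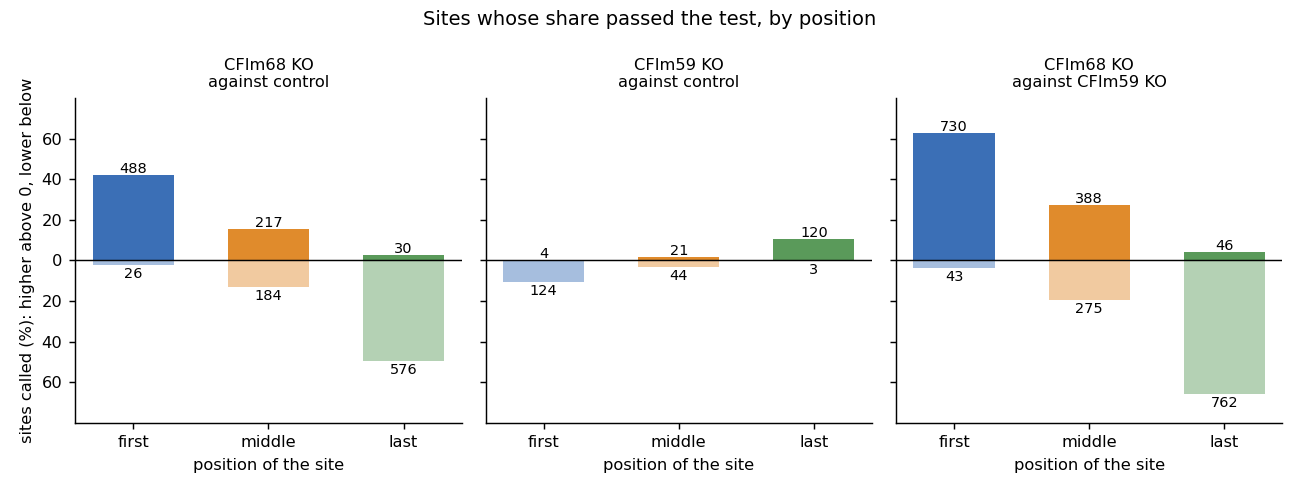
Percent of sites (vertical axis) whose share passed the test, higher above 0 and lower below, for first, middle and last sites of the 1161 genes in the 3 comparisons, with the number of sites at each bar. First and last bars point opposite ways, and the middle bars have calls on both sides, 217 and 184 in the left panel.

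BCLAF1, a nuclear protein of transcription and RNA processing (hg19 chromosome 6, minus strand, middle site at 136581866), had a high middle share and a low last share in the CFIm68 knockout. Its middle site took 46.7% and 50.4% of the kept reads in the CFIm68 knockout lines, 4.44% and 4.31% in the CFIm59 knockout lines and 10.8% in the control. The CFIm68 knockout lines stood above the other 3 libraries, which together hold 49 of 698 kept reads at this site (7.02%), so it is a member only through the CFIm68 knockout lines. Its last site, 2141 nt downstream, held 11.7% and 15.6% in the CFIm68 knockout lines, 92.2% and 91.8% in the CFIm59 knockout lines and 78% in the control. The first site lay 169 nt upstream of the middle one.

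SYNCRIP, which encodes hnRNP Q, shows a middle site that gained with no call at the first site. At 86322296 on chromosome 6 (minus strand) the middle site took 73.1% and 65.4% in the CFIm68 knockout lines, 15.5% and 18.8% in the CFIm59 knockout lines and 32.2% in the control (95% Wilson interval 27.8% to 37.0%). The rise in the CFIm68 knockout was log2 2.26 (SE 0.36, adjusted p = 6.9e-09), while the first site held 21.2% and 26.8% there and 26.3% in the control (adjusted p = 0.721). WNK1, a kinase that regulates ion cotransporters (chromosome 12, plus strand, 1018804), gave the middle site 50.6% and 55.5% in the CFIm68 knockout lines, 17.5% and 13.9% in the CFIm59 knockout lines and 16.2% in the control (log2 2.54, SE 0.40, adjusted p = 3e-09). ABI2, a subunit of the WAVE actin regulator, gave its own 62.1% and 57.0% in the CFIm68 knockout lines, 22.4% and 16.3% in the CFIm59 knockout lines and 20.8% in the control (log2 2.49, SE 0.40, adjusted p = 1.47e-08). In all 3 genes the CFIm68 knockout lines lay apart from every other library.

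In the other risers named by size, both CFIm68 knockout lines again lay above the remaining 3 libraries. IDS, the lysosomal iduronate sulfatase, has 5 kept sites, and the second of them took 49.4% and 45.3% in the CFIm68 knockout lines, 8.20% and 11.6% in the CFIm59 knockout lines and 5.76% in the control. In IDS the first site lay 4589 nt upstream and did not pass the test (18.9% and 11.3% in the CFIm68 knockout lines, 20.9% in the control, adjusted p = 0.405). BRI3BP reached 56.6% and 60.4% in the CFIm68 knockout lines, against 18.1% in the control (log2 2.66, SE 0.43, adjusted p = 1.12e-08). CAMSAP2, which binds microtubule minus ends, reached 45.3% and 56.5% in the CFIm68 knockout lines, on 39 and 35 reads, against 11.2% in the control. Outside the CFIm68 knockout lines the IDS site held 24 of 295 kept reads (8.14%) and the CAMSAP2 site 22 of 257 (8.56%), so both are members only through those lines. YTHDC2, an RNA helicase that binds methylated adenosine, reached 56.4% and 56.3% in the CFIm68 knockout lines, against 19.3% in the control (log2 2.42, SE 0.51, adjusted p = 1.59e-05). In BRI3BP, YTHDC2 and WNK1 the first site did not pass the test, and in ABI2 and CAMSAP2 it rose with the middle site.

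The 8 falling middle sites named by size lay in genes whose first site gained share, although in SLITRK5 the middle site still led in the CFIm68 knockout lines and in SLC11A2 the last site did. In the genes with 3 kept sites whose middle site fell, the first site rose in 46 beside a lower last site, in 38 with no call at the last and in 2 beside a higher last site. It was not called in 11 where the last site rose and in 6 where the middle site alone was called. RIF1, a factor of replication timing and double-strand break repair (chromosome 2, plus strand, middle site at 152333850, site 3 of 4 kept sites), gave the middle site 2.96% and 2.06% in the CFIm68 knockout lines, 55.0% and 57.6% in the CFIm59 knockout lines and 47.9% in the control. Those shares rest on 4 and 2 reads in the CFIm68 knockout lines, where the site held 2.59% of the kept reads, so it is a member only through the other 3 libraries. Its first site, 1895 nt upstream, held 51.1% and 50.5% in the CFIm68 knockout lines, 3.0% and 2.08% in the CFIm59 knockout lines and 2.05% in the control. HOOK1, a dynein adaptor (chromosome 1, plus strand, 60341992), gave the middle site 27.1% and 24.2% in the CFIm68 knockout lines, 72.2% and 74.4% in the CFIm59 knockout lines and 65.7% in the control (log2 -2.46, SE 0.43, adjusted p = 1.62e-07). The first site of HOOK1, 2740 nt upstream, held 57.8% and 56.2% in the CFIm68 knockout lines, 0% and 3.85% in the CFIm59 knockout lines and 8.57% in the control. The count of 0 in CFIm59 knockout line 1 allows a share of up to 5.56%. The middle and last sites of HOOK1 lie 50 nt apart, and those of TNKS2 94 nt apart, so each pair becomes 1 site when sites within 100 nt are merged.

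TNKS2, a tankyrase that attaches poly(ADP-ribose) to proteins, gave its middle site 41.0% and 42.0% in the CFIm68 knockout lines, 87.3% and 76.4% in the CFIm59 knockout lines and 83.3% in the control (log2 -2.81, SE 0.47, adjusted p = 3.66e-08). FNDC3A, with fibronectin type III domains, gave 28.3% and 47.4% in the CFIm68 knockout lines and 81.7% in the control (log2 -2.99, SE 0.51, adjusted p = 5.11e-08). The CFIm68 knockout lines stood apart from each other in FNDC3A, and both lay below the control. RAB3GAP2, a subunit of the RAB3 GTPase activating complex, gave 15.6% and 15.8% in the CFIm68 knockout lines and 56.9% in the control (log2 -2.82, SE 0.47, adjusted p = 4.33e-08), in a gene with a site also listed elsewhere. G2E3, a ubiquitin ligase, gave 5.06% and 3.08% in the CFIm68 knockout lines, on 4 and 2 reads, and 43.3% in the control, and it too is a member only through the other libraries (4.17% in the CFIm68 knockout lines). SLITRK5, a neuronal adhesion protein, gave 43.5% and 45.9% in the CFIm68 knockout lines and 81.2% in the control (log2 -2.40, SE 0.56, adjusted p = 0.000119), a call not made by edgeR's exon-level test (adjusted p = 0.103). SLC11A2, an iron transporter, gave 24.1% and 30.9% in the CFIm68 knockout lines and 63.8% in the control (log2 -2.22, SE 0.51, adjusted p = 9.23e-05). In all 8 of these genes the first site rose past the threshold in the CFIm68 knockout, with adjusted p-values of up to 0.00106 in G2E3.

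In many genes only the outer sites were called. Of the 917 genes with 3 kept sites, 303 had a first site that rose and a last site that fell in the CFIm68 knockout; the middle site was not called in 202 of them, rose in 55 and fell in 46. In a further 55 genes the middle site rose and the last fell with no call at the first, in 88 only the last fell, in 54 only the first rose, and in 318 no site was called. CAND1, which exchanges substrate receptors of cullin ubiquitin ligases, gave its middle site 27.3% and 21.6% in the CFIm68 knockout lines, 26.0% and 22.6% in the CFIm59 knockout lines and 24.5% in the control (95% Wilson interval 20.2% to 29.5%, adjusted p = 0.997). Over the same libraries its last site held 0.243% and 0.355% in the CFIm68 knockout lines, 45.3% and 50% in the CFIm59 knockout lines and 25.2% in the control (log2 -6.68, adjusted p = 4.87e-22). The other genes named for a flat middle site had less extreme outer sites. GATAD2B, a subunit of the NuRD chromatin complex, gave its middle site 31.1% and 30.5% in the CFIm68 knockout lines and 31.0% in the control. MAPK1IP1L gave 21.2% and 22.7% in the CFIm68 knockout lines and 21.5% in the control. PDS5A, a cohesin regulator, gave 62.6% and 55.0% in the CFIm68 knockout lines and 58.6% in the control, but its first site lies 73706 nt upstream and may belong to another last exon. These 4 were picked for the small change of the middle share, which is therefore a description.

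**Figure D3:**
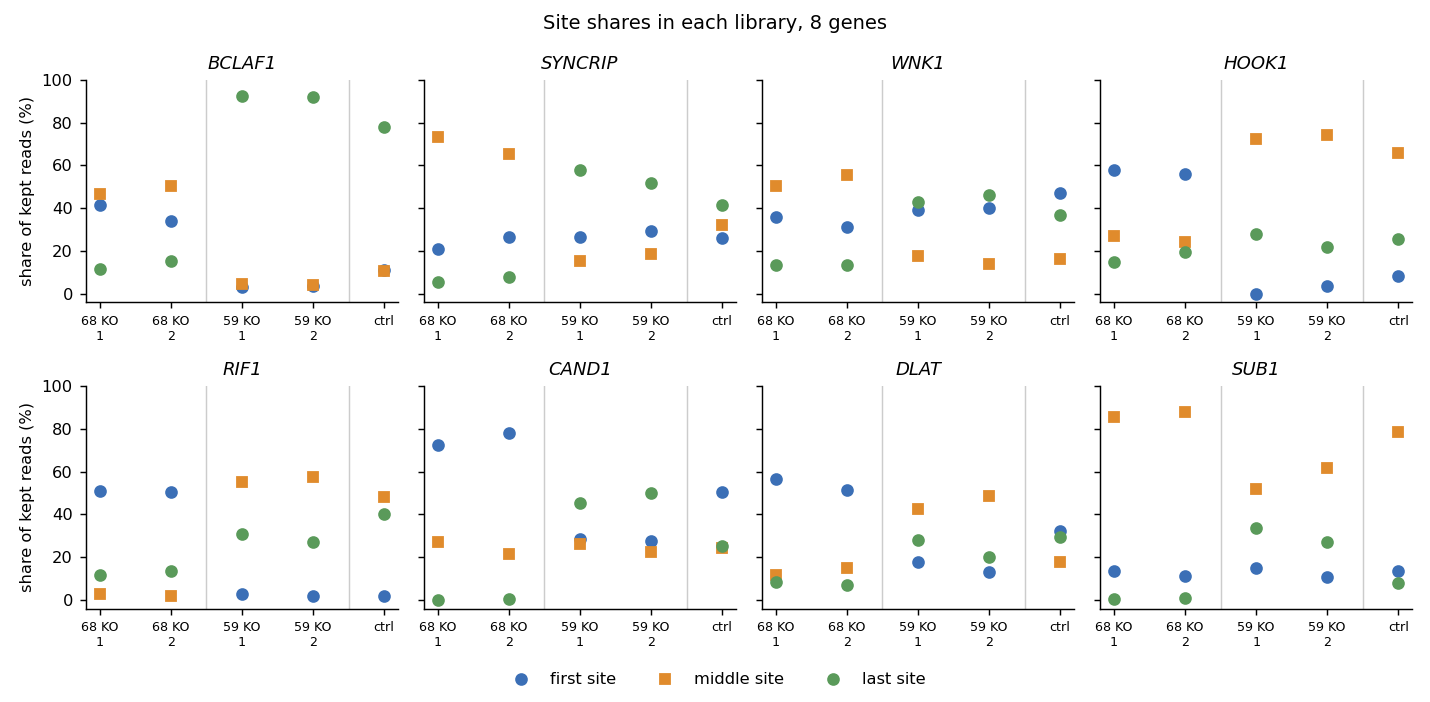
Share of kept reads (%, vertical axis) at the first, middle and last site of 8 genes in each of the 5 libraries, CFIm68 knockout lines left, CFIm59 knockout lines centre, control right; each point is 1 library. The middle site (square) is high in the CFIm68 knockout in BCLAF1, SYNCRIP and WNK1, low there in HOOK1 and RIF1, flat in CAND1, and apart in the CFIm59 knockout in DLAT and SUB1.

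Testing neighbours pairwise separates the exchange on each side of the middle site. Here reads at the upstream site were set against those at the next kept site in the same fit, over 4827 neighbouring pairs. In the CFIm68 knockout against the control, reads moved to the upstream site in 265 of 1161 first and middle pairs (22.8%) and to the downstream one in 52. Between middle and last sites they moved upstream in 335 of 1161 pairs (28.9%) and downstream in 36. Over all pairs tested 29.3% moved upstream and 3.58% downstream, and in genes with only 2 kept sites 739 of 2239 pairs (33.0%) moved upstream. Between 2 middle sites of one gene, 74 of 266 pairs moved upstream and 3 downstream. Without CFIm68 knockout line 1, 168 first and middle pairs moved upstream and 22 middle and last pairs moved downstream, and without line 2 the counts were 237 and 33.

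Among the 917 genes with 1 middle site, 214 had a call from last to middle alone, 166 a call from middle to first alone and 48 both. In SYNCRIP the middle site gained on the last (log2 3.74, adjusted p = 5.56e-18) and also on the first (log2 -1.25 toward the first, adjusted p = 0.00551). Genes with the middle site losing on both sides numbered 17 among those with 3 kept sites, and genes with the middle site gaining on both sides, as in SYNCRIP, numbered 23.

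The share of pairs called varied with the distance between the sites. Over the 917 genes with 3 kept sites, the middle site lay a median of 562 nt from the first (quartiles 200 and 1781). It lay a median of 977 nt from the last (275 and 2268), and a median of 41.9% of the way between them. In the CFIm68 knockout, 5.66% of first and middle pairs under 250 nt apart moved upstream, 28.5% of those 250 to under 1000 nt apart, 43.9% of those 1000 to under 4000 nt apart and 14.7% of those farther apart. Middle and last pairs gave 7.60%, 29.5%, 43.2% and 24.0% over the same classes. Genes with 2 kept sites gave 7.53%, 33.4%, 50.1% and 31.3%. These shares are descriptions over pairs, with no test between classes. The outer sites lay 10000 nt or more apart in 104 of these 917 genes, which may then hold 2 last exons. With every gene of such a span left out, whatever its number of kept sites, 248 of 1014 first and middle pairs moved upstream.

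**Figure D4:**
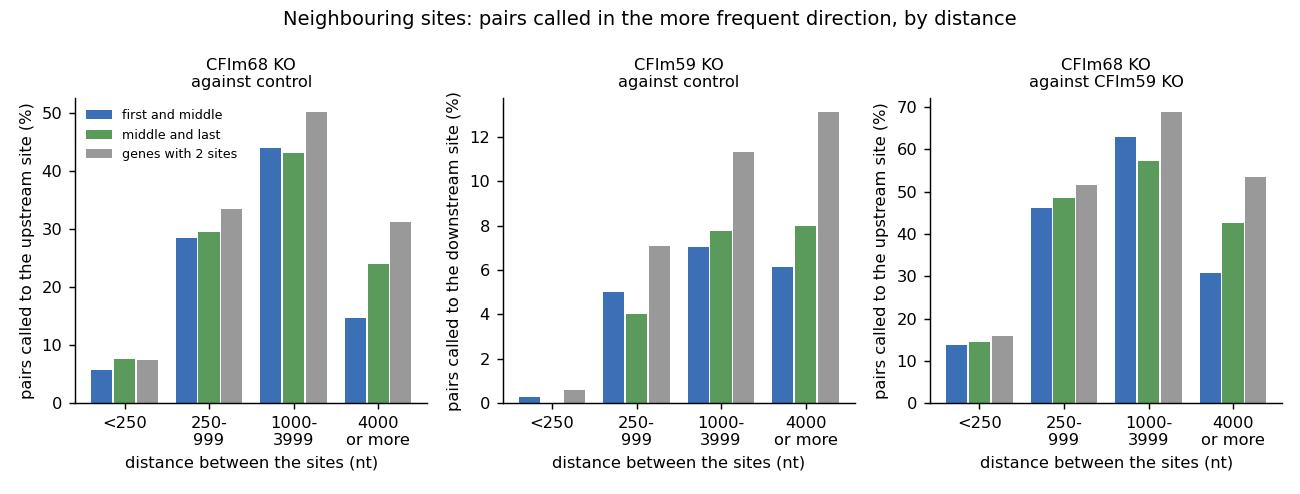
Percent of neighbouring site pairs (vertical axis, scaled separately in each panel) called toward the upstream site in the CFIm68 knockout comparisons and toward the downstream site in the CFIm59 knockout comparison, by distance between the sites in nt. In the left panel all 3 kinds of pair peak at 1000 to under 4000 nt, at 43.9%, 43.2% and 50.1%.

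Calls of middle sites also varied with their place between the neighbours, here too without a test between classes. In the CFIm68 knockout, of the 330 middle sites that lay 0% to 25% of the way from first to last, 24.2% rose and 5.76% fell, with a median change of 6.48 points. From 25% to 50% of the way, 12.9% of 194 rose and 11.3% fell. From 50% to 75%, 10.1% of 148 rose and 18.9% fell, and beyond 75%, 5.71% of 245 rose and 13.9% fell, with a median change of -3.17 points. Spearman's rho between relative place and change in share was -0.283 over the 917 sites, a description over sites that share libraries. Members whose direction is built into their choice are included, and the place classes were not read without them in either comparison. Over all members they make up 84 of the 217 that rose and 68 of the 184 that fell in the CFIm68 knockout. In the CFIm59 knockout the order was turned: 1.21% rose and 7.88% fell up to 25% of the way, against 2.45% and 0.408% beyond 75% (rho 0.19), with the same control library in both comparisons and on calls that need both CFIm59 knockout lines (counts without a line are given with those calls).

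**Figure D5:**
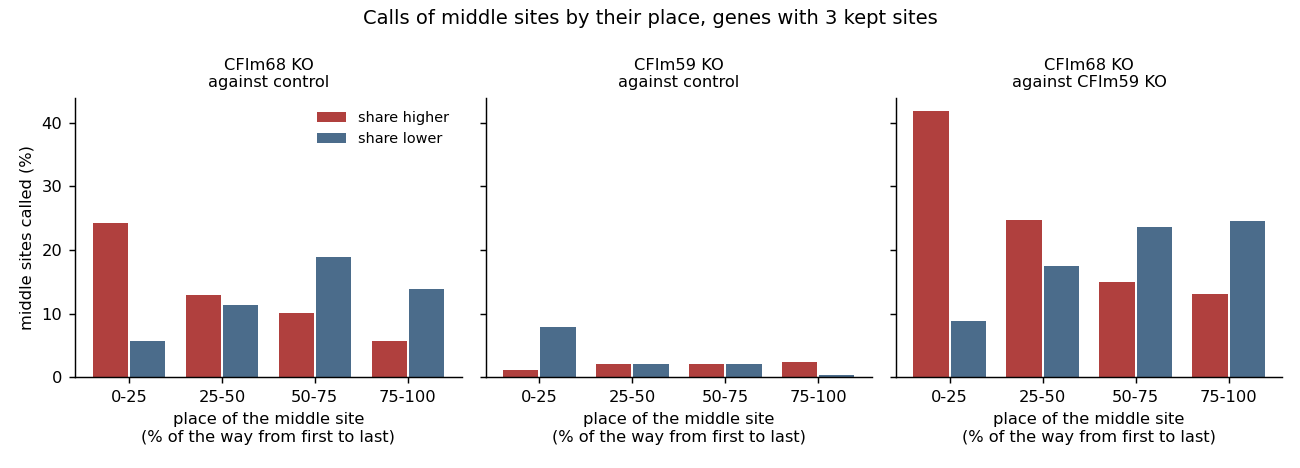
Percent of middle sites (vertical axis) whose share passed the test, higher or lower, by place between the first (0%) and last (100%) kept site, over the 917 genes with 3 kept sites. In the left panel calls of a higher share go down along the axis, 24.2% up to 25% of the way and 5.71% beyond 75%. Sites whose direction is built into their choice are included.

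In genes with 4 kept sites the 2 middle sites can be read side by side, without a test between them. Of their 222 second sites, 66 rose (29.7%) and 11 fell (4.95%) in the CFIm68 knockout against the control. Of their 222 sites of order 3, 10 rose (4.5%) and 60 fell (27%). Over all members 15.2% rose and 12.9% fell, and over all kept sites 19.3% rose and 19.9% fell. How many of the calls in these genes have a direction that is built into the choice was not counted. In 37 genes the second site rose while the third fell, in 2 both rose, in 4 both fell and in 2 the third rose while the second fell. In 27 the second alone rose, in 19 the third alone fell, in 6 the third alone rose, in 5 the second alone fell, and in 120 neither was called. HNRNPU, a nuclear matrix RNA-binding protein (chromosome 1, minus strand), is one of the 37. Its second site at 245017435 held 37.0% and 29.5% in the CFIm68 knockout lines, 13.1% and 12.1% in the CFIm59 knockout lines and 18.1% in the control (log2 1.17, SE 0.29, adjusted p = 0.000361). The third site at 245016962 held 28.9% and 37.0% in the CFIm68 knockout lines and 46.3% in the control (log2 -0.82, SE 0.29, adjusted p = 0.013). The call at the third site was lost without CFIm68 knockout line 1 (adjusted p = 0.152) and without either CFIm59 knockout line (adjusted p = 0.0574 and 0.056), with DESeq2 (0.0801) and with the exon-level test (0.211).

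Loss of CFIm59, set against the control in the same fit, called few middle sites. Of the 1427 members, 21 rose (1.47%) and 44 fell (3.08%); over all kept sites 4.55% rose and 4.86% fell, and 208 members had an unadjusted p under 0.05. Of the 44 that fell, 24 held under 10% of the kept reads in the CFIm59 knockout lines, and of the 21 that rose, 4 held under 10% in the other 3 libraries, so their direction is built into the choice. At the first sites of the same genes 4 rose and 124 fell, and at the last sites 120 rose and 3 fell. Both CFIm59 knockout lines lay on the same side of the control in every called member. These member counts need both lines: without CFIm59 knockout line 1, 3 rose and 2 fell, and without line 2, 0 rose and 3 fell. DESeq2 called 1 higher and 9 lower. Pairs moved downstream in 48 first and middle pairs and 58 middle and last pairs and upstream in 6 of each, against 0.663% upstream and 5.99% downstream over all pairs; without line 1, 3 and 7 moved downstream, and without line 2, 1 and 5 did.

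Of the 34 middle sites that fell in the CFIm59 knockout in genes with 3 kept sites, 23 lay under 250 nt behind the first site. There 282 of all 917 such middle sites lie, of which 8.16% fell, beside 3.71% of all 917. These calls too need both lines. How many of the 23 have a fall that is built into the choice was not counted. SUB1, the transcription coactivator PC4 (chromosome 5, plus strand, 32601431), was the most deeply read of the 5 named here, with 262 and 540 middle reads in the CFIm59 knockout lines and 876 in the control. Its middle share was 85.7% and 87.8% in the CFIm68 knockout lines, 51.7% and 61.8% in the CFIm59 knockout lines and 78.6% in the control (log2 -1.47, SE 0.31, adjusted p = 0.000176 in the CFIm59 knockout). Its last site, 2754 nt downstream, held 33.5% and 27.2% in the CFIm59 knockout lines and 7.80% in the control and rose (log2 2.35, adjusted p = 1.77e-09). H2AFV, a histone H2A variant, gave its middle site 34.6% and 35.0% in the CFIm59 knockout lines and 57.5% in the control (log2 -1.34, SE 0.34, adjusted p = 0.00347). SSR1, a subunit of the translocon-associated complex, gave 17.8% and 25% in the CFIm59 knockout lines and 41.9% in the control (log2 -1.35, SE 0.40, adjusted p = 0.015). TMEM245 gave 5.26% and 10.2% in the CFIm59 knockout lines, on 3 and 6 reads, and 29.6% in the control, and it is a member only through the other libraries (7.76% in the CFIm59 knockout lines). NR2C1, an orphan nuclear receptor, gave 53.3% and 44.1% in the CFIm59 knockout lines and 78.2% in the control (log2 -1.91, SE 0.55, adjusted p = 0.0106).

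A smaller set of middle sites gained in the CFIm59 knockout. CSNK1E, a casein kinase of the circadian clock, gave its middle site 35.1% and 29.6% in the CFIm68 knockout lines, 48.3% and 51.1% in the CFIm59 knockout lines and 23.0% in the control (log2 1.73, SE 0.35, adjusted p = 0.000102 in the CFIm59 knockout). DLAT, the acetyltransferase of the pyruvate dehydrogenase complex, gave 42.6% and 48.8% in the CFIm59 knockout lines and 17.9% in the control (log2 1.96, SE 0.47, adjusted p = 0.00154). ATP2C1, a Golgi calcium pump, gave 76.3% and 68.6% in the CFIm59 knockout lines and 44.7% in the control (log2 1.69, SE 0.46, adjusted p = 0.00755); there the last site, 14691 nt downstream, lost reads. AGFG1 gave 47.4% and 49.0% in the CFIm59 knockout lines and 23.9% in the control (log2 1.57, SE 0.49, adjusted p = 0.0204). MYO6, a myosin that moves toward actin minus ends, gave 61.5% and 73.4% in the CFIm59 knockout lines and 43.9% in the control (log2 1.43, SE 0.50, adjusted p = 0.0487). In these 5 genes each CFIm59 knockout line lay above the control, which the choice of named members required.

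All 10 of these calls in the CFIm59 knockout were lost without one line or the other, and all 10 with edgeR's exon-level test. With DESeq2, CSNK1E, H2AFV and SUB1 were called (adjusted p = 0.00406, 0.0382 and 0.0121) and the other 7 were not. With line 1 left out, the adjusted p was 0.06 in DLAT, 0.163 in ATP2C1, 0.132 in AGFG1, 0.138 in MYO6, 0.096 in NR2C1, 0.125 in H2AFV, 0.172 in TMEM245, 0.124 in SUB1 and 0.231 in SSR1. With line 2 left out, it was 0.132 in DLAT, 0.0831 in ATP2C1, 0.0804 in CSNK1E, 0.203 in AGFG1, 0.418 in MYO6, 0.213 in NR2C1, 0.131 in H2AFV, 0.0831 in TMEM245 and 0.123 in SSR1.

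The knockouts were then set against each other, which tests whether the 2 changes differ. In the CFIm68 knockout against the CFIm59 knockout, 388 middle sites were higher (27.2%) and 275 lower (19.3%); over all kept sites 29.7% were higher and 28.6% lower. Of the 388, 118 held under 10% of the kept reads outside the CFIm68 knockout lines, and of the 275, 93 held under 10% in those lines, so their direction is built into the choice. In the mean of the CFIm59 knockout lines alone, 170 of the 388 held under 10%, so the choice bears on their direction as well. With the site minimum on the mean of the 3 group shares, 338 were higher and 314 lower, so here too neither direction is called the more frequent one. Of the 1161 first sites 730 were higher and 43 lower, and of the last sites 46 were higher and 762 lower. With 477 genes of 3 kept sites higher at the first site and lower at the last, the middle site was higher in 138, lower in 82 and not called in 257. First and middle pairs were shifted upstream in 435 of 1161 (37.5%) and downstream in 96, and middle and last pairs upstream in 502 (43.2%) and downstream in 61; over all pairs it was 44.8% and 6.28%. Without CFIm59 knockout line 2, the downstream counts were 56 and 32, and without CFIm68 knockout line 1 the second was 37.

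SYNCRIP, TMEM245, AZIN1 and SCYL2 had the largest higher middle shares in this comparison. TMEM245 gave its middle site 61.5% and 64.2% in the CFIm68 knockout lines, against 5.26% and 10.2% in the CFIm59 knockout lines, with the control between at 29.6%. AZIN1, an inhibitor of the antizyme that controls polyamine synthesis, gave 62.0% and 67.5% in the CFIm68 knockout lines, against 14.9% and 11% in the CFIm59 knockout lines (log2 3.65, SE 0.38, adjusted p = 4.68e-20), with the control at 32.9%. SCYL2, a pseudokinase of clathrin-coated vesicles, gave 58.5% and 54.9% in the CFIm68 knockout lines, against 12.9% and 5.26% in the CFIm59 knockout lines, with the control at 29.2%. Both TMEM245 (7.76%) and SCYL2 (8.7%) held under 10% of the kept reads in the CFIm59 knockout lines. Their direction is therefore built into the choice, and their values are descriptions. In TMEM245, AZIN1 and SCYL2 the first and middle sites lie 204, 59 and 54 nt apart. The pair becomes 1 site in AZIN1 and in SCYL2 when sites within 100 nt are merged. RIF1, RAB3GAP2, HOOK1 and SLITRK5 had the largest lower middle shares. RAB3GAP2 gave 15.6% and 15.8% in the CFIm68 knockout lines, against 64.4% and 61.1% in the CFIm59 knockout lines (log2 -3.15, SE 0.40, adjusted p = 8.08e-14), and SLITRK5 gave 43.5% and 45.9% in the CFIm68 knockout lines, against 94.3% and 89.3% in the CFIm59 knockout lines (log2 -3.67, SE 0.50, adjusted p = 2.64e-12).

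Among genes that make mRNA ends, 5 had middle sites: CPSF2, CPSF6, CSTF1, NUDT21 and PPP1CB, with 6 members. Against the control, 1 of the 6 rose and 0 fell in the CFIm68 knockout, with a median change of -1.98 points beside 0.467 points over all 1427 members, of which 15.2% rose and 12.9% fell. The one that rose is the second kept site of NUDT21, the CFIm25 gene (chromosome 16, minus strand, 56466334), which held 21.4% and 26.6% in the CFIm68 knockout lines, 3.03% and 3.14% in the CFIm59 knockout lines and 11% in the control. Outside the CFIm68 knockout lines it held 43 of 601 kept reads (7.15%), and in the CFIm59 knockout lines 9 of 291 (3.09%). It is thus a member only through the libraries in which it is high. Its lower share in the CFIm59 knockout rests on 4 and 5 reads, and that call was lost without line 1 (adjusted p = 0.19) or line 2 (adjusted p = 0.224). In CPSF6 itself the middle site held 32.7% and 29.9% in the CFIm68 knockout lines, on 36 and 26 reads, 44.4% and 39.5% in the CFIm59 knockout lines and 41.6% in the control (adjusted p = 0.228), while its first site rose (adjusted p = 8.88e-05).

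The SR protein list, the splicing factors whose domains resemble those of CFIm68 and CFIm59, gave 1 member that rose and 1 that fell in the CFIm68 knockout out of 6 (16.7% each), beside 15.2% and 12.9% over all members. SRSF10 gave its middle site 28.1% and 20.2% in the CFIm68 knockout lines, 6.25% and 4.39% in the CFIm59 knockout lines and 9.06% in the control, and with 45 of 652 kept reads outside the CFIm68 knockout lines (6.90%) it is a member only through those lines. SRSF8 gave 27.4% and 28.3% in the CFIm68 knockout lines, on 17 and 15 reads, and 53.8% in the control (log2 -1.59, adjusted p = 0.0179), a call lost without CFIm68 knockout line 1 (adjusted p = 0.0532), with DESeq2 (0.158) and with the exon-level test (0.156). SRSF3, with 851 and 633 middle reads in the CFIm68 knockout lines and 1010 in the control, gave 55.8% and 53.1% in the CFIm68 knockout lines, 57.0% and 51.7% in the CFIm59 knockout lines and 52.5% in the control (adjusted p = 0.779). Its first site rose and its last fell (adjusted p = 0.0272 and 2.39e-14). SRSF6 and TRA2B had the same pattern, with middle shares of 16.3% and 18.0% in the CFIm68 knockout lines and 15.7% in the control for SRSF6, and of 13.3% and 11.4% in the CFIm68 knockout lines and 13.3% in the control for TRA2B. SRSF12 had 9 and 8 middle reads in the CFIm68 knockout lines and 6 in the control and was not called.

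Of 7 hnRNP members 2 rose and 2 fell in the CFIm68 knockout (28.6% each, beside 15.2% and 12.9% over all members): SYNCRIP and the upstream HNRNPU middle site rose, and the downstream HNRNPU middle site and HNRNPA3 fell. HNRNPA3 gave its middle site 9.40% and 13.7% in the CFIm68 knockout lines and 20.7% in the control (log2 -1.02, SE 0.33, adjusted p = 0.00718), lost without CFIm68 knockout line 1 (adjusted p = 0.111), while its first site held 82.2% and 74.9% in the CFIm68 knockout lines and 45.5% in the control. HNRNPUL1 and HNRNPUL2 were not called. HNRNPLL held 6 and 2 middle reads in the CFIm68 knockout lines and 38 in the control, too few for a share to be read. Of the 6 members in RNA decay and the microRNA pathway 0 rose and 3 fell, with a median of -9.94 points, beside 0.467 points and the 15.2% and 12.9% over all members; the 3 calls rest on 0 to 8 reads in each CFIm68 knockout line. XRN1, a cytoplasmic exonuclease, gave 18.2% and 9.52% in the CFIm68 knockout lines, on 8 and 4 reads, and 33.8% in the control (log2 -1.63, adjusted p = 0.0253). AGO3, an Argonaute protein, gave its downstream middle site 20.8% and 9.68% in the CFIm68 knockout lines, on 5 and 3 reads, and 42.5% in the control (log2 -2.08, adjusted p = 0.022). The upstream AGO3 middle site, named here to complete the count, had 0 reads in both CFIm68 knockout lines and 5 in the control. That site is a member only through the other libraries, so its fall is built into the choice. Without CFIm68 knockout line 2 the calls of XRN1 and of the downstream AGO3 site were lost (adjusted p = 0.184 and 0.222). They were also lost with DESeq2 (0.181 and 0.158) and with the exon-level test (0.111 and 0.0931). In CNOT6, a deadenylase subunit, the middle site held 9.14% and 5.82% in the CFIm68 knockout lines and 14.9% in the control (adjusted p = 0.0791), and the first site rose to 88.0% and 88.9% there, against 53.1% in the control.

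Ubiquitin enzymes and transport genes gave further single cases. USP9X, a deubiquitinase (chromosome X, plus strand, 41093050), gave its middle site 1.62% and 1.09% in the CFIm68 knockout lines, 22.5% and 19.8% in the CFIm59 knockout lines and 15% in the control, with 95.6% and 95.9% at the first site in the CFIm68 knockout lines and 66.9% in the control. With 11 of 799 kept reads in the CFIm68 knockout lines (1.38%), the site is a member only through the other libraries. Of 13 members in ubiquitin-specific proteases 0 rose and 2 fell (15.4%), near the 12.9% that fell over all members, of which 15.2% rose. UBE2N, a ubiquitin-conjugating enzyme, gave 85.7% and 88.0% in the CFIm68 knockout lines, 57.1% and 53.6% in the CFIm59 knockout lines and 64.3% in the control (log2 1.85, SE 0.38, adjusted p = 1.19e-05), and 1 of 5 members of its list rose and 1 fell. IPO5, an importin, gave 70.8% and 72.4% in the CFIm68 knockout lines, 42.9% and 48.2% in the CFIm59 knockout lines and 53.3% in the control (log2 1.14, SE 0.33, adjusted p = 0.00245), and 1 of 7 nuclear transport members rose and 2 fell. RAB2A, a GTPase of transport between endoplasmic reticulum and Golgi, gave 26.7% and 34.1% in the CFIm68 knockout lines, 69.0% and 65.8% in the CFIm59 knockout lines and 61.3% in the control (log2 -1.86, SE 0.39, adjusted p = 1.55e-05), and 3 of 10 RAB members rose and 1 fell. The exon-level test called neither UBE2N (adjusted p = 0.353) nor IPO5 (0.338).

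Total reads of the member genes were tested apart from their sites, over 14636 genes. Against the control, 21 of the 1161 member genes were higher and 21 lower in the CFIm68 knockout (1.81% each), beside 1.59% and 2.03% of all genes. In the CFIm59 knockout 48 were higher (4.13%) and 99 lower (8.53%), beside 6.98% and 6.87% of all genes; without line 1 the lower count was 59 and without line 2 it was 55. Between the knockouts 154 were higher in the CFIm68 knockout and 102 lower, beside 9.46% and 10.3% of all genes; without CFIm59 knockout line 1 the higher count was 95 and without line 2 it was 81. Of the genes with middle sites named above, CPSF6 (log2 -1.35), HOOK1, IPO5 and HNRNPLL had totals called in the CFIm68 knockout (edgeR, adjusted p = 0.000512, 0.0482, 0.0309 and 1.42e-06). DESeq2 called fewer member gene totals in each comparison, with counts given below.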

How the data were processed

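Poly(A) site reads were counted in 5 HEK293T libraries. The deposited values are raw read counts per site and library, and the file headers give each site a gene and a class by exon or intron. The submitters' processing notes name hg19, TopHat2 2.1.0 and deepTools 2.4; site calling, internal priming and whether positions count from 0 or 1 are not stated there. Sites listed more than once entered at their first listing, which holds the reads.

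Each kept site's counts were fitted beside those of the gene's other kept sites with edgeR 4.0.16 (R 4.3.3; quasi-likelihood, 2-sided), with 1 term per library, a site term and site-by-group terms. Neighbouring sites were fitted the same way. Library scaling cancels in these ratios. Adjusted p-values are Benjamini-Hochberg over every site, pair or gene tested. All 5 libraries entered each fit, so the lone control was assumed to vary like the knockout lines. Gene totals used TMM and filterByExpr. DESeq2 1.42.0 was an alternative. Scripts were tested on simulated data. Intervals for control shares are Wilson 95% and cover counting error only, since no molecular identifiers were used.

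Named members had 50 or more kept reads of the gene in every library, passed the test with both lines on 1 side, and had the largest changes in percentage points: 8 each way for the CFIm68 knockout, 5 for the CFIm59 knockout and 4 between them. To these came 4 genes with a flat middle site, all members of the 3′ end, SR and hnRNP lists, and up to 3 of each other list. The members and lists were chosen with earlier results of these data known. Site sequences were not used here.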

Additional observations from a re-analysis of the deposited data

Results flagged for a closer look

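For 50 named members the change in the CFIm68 knockout and the change in the CFIm59 knockout differed in the test of one knockout against the other. The log2 values here are that difference, CFIm68 knockout minus CFIm59 knockout, for the ratio of the middle site to the rest of its gene (edgeR, Benjamini-Hochberg over 8227 sites). Most of these members were named for a large change in 1 of the knockouts, so a difference is partly built into the choice. BCLAF1, CAMSAP2, IDS, the second NUDT21 site, SRSF10, RIF1, USP9X, G2E3 and CNOT6 passed the site minimum only through the libraries in which they are high, and their differences are descriptions. TMEM245 and SCYL2 held 7.76% and 8.7% of the kept reads in the CFIm59 knockout lines. They passed only through the other libraries, so their differences are descriptions too.

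Higher in the CFIm68 knockout were BCLAF1 by 4.35, TMEM245 by 4.29, SCYL2 by 3.77, CAMSAP2 by 3.68, AZIN1 by 3.65 and SYNCRIP by 3.43. The second NUDT21 site was higher by 3.26, BRI3BP by 3.17, IDS by 2.98, ABI2 by 2.69 and WNK1 by 2.60. SRSF10 was higher by 2.51, SSR1 by 2.47, UBE2N by 2.4, SUB1 by 2.30, SLC16A10 by 2.21 and H2AFV by 2.1. TMEM183A was higher by 1.93, NR2C1 by 1.86, the second HNRNPU site by 1.79, YTHDC2 by 1.77 and ZNF24 by 1.71. TMEM237 was higher by 1.60, IPO5 by 1.58, SLC25A33 by 1.55, RAB4A by 0.87, EIF4E by 0.78 and EIF2S3 by 0.57.

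In the other direction, RIF1 stood at -5.55, USP9X at -4.23, SLITRK5 at -3.67, RAB3GAP2 at -3.15, G2E3 at -3.00 and HOOK1 at -2.99. XRN1 stood at -2.83, PPP2R1B at -2.82, TNKS2 at -2.53, DLAT at -2.51 and ATP2C1 at -2.43. AGFG1 stood at -2.26, RAB2A at -2.23, FNDC3A at -2.11, AGO3 at -2.01, SLC11A2 at -1.59 and SRSF8 at -1.56. CNOT6 and ZNF207 stood at -1.20 each, CSNK1E at -1.05, MYO6 at -0.89 and HNRNPUL1 at -0.66.

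In SUB1, SSR1, TMEM245, AZIN1, SCYL2, SYNCRIP and the second NUDT21 site, the middle share was called higher in the CFIm68 knockout and lower in the CFIm59 knockout, each against the control library that both comparisons share. In the CFIm59 knockout lines TMEM245, SCYL2 and the second NUDT21 site held 7.76%, 8.7% and 3.09% of the kept reads. Their lower share there is thus built into the choice and is a description. All 7 of these calls in the CFIm59 knockout were lost without one line or the other, with adjusted p-values without line 1 and line 2 of 0.256 and 0.194 in SYNCRIP, 0.085 and 0.224 in AZIN1, and 0.06 and 0.269 in SCYL2. The SUB1 call in the CFIm68 knockout was lost without CFIm68 knockout line 2 (0.0752), without CFIm59 knockout line 1 (0.0573) or 2 (0.0587), with DESeq2 (0.105) and with edgeR's exon-level test (0.839). The exon-level test also missed SSR1 (0.23) and SCYL2 (0.0767) in the CFIm68 knockout, and DESeq2 missed SCYL2 (0.0606). In CSNK1E the middle share was called higher in the CFIm59 knockout (log2 1.73), and its log2 value in the CFIm68 knockout was 0.68 (adjusted p = 0.102). The differences of MYO6, HNRNPUL1, RAB4A, EIF2S3, EIF4E, CNOT6, AGO3 and SLC25A33 each missed the threshold without at least 1 of the 4 knockout lines, with adjusted p-values of up to 0.496 in MYO6 and 0.534 in SLC25A33. The cause of these differences was not tested.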

How the results depend on the processing

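Of the 79 named members, none with a call changed direction in an alternative that retained it; a site minimum of 15% retained 32. With DESeq2, 11 of 39 named calls were lost in the CFIm68 knockout, 12 of 15 in the CFIm59 knockout and 7 of 50 between the knockouts; with edgeR's exon-level test 15, 15 and 7 were. With DESeq2, middle shares called higher and lower were 101 and 92 in the CFIm68 knockout and 1 and 9 in the CFIm59 knockout. DESeq2 called first and middle pairs upstream and downstream in 115 and 20, and middle and last pairs in 168 and 9, in the CFIm68 knockout; in the CFIm59 knockout these were 0 and 4, and 2 and 13. Between the knockouts it called 57 and 28 pairs downstream, and member gene totals higher and lower in 2 and 5 (CFIm68 knockout), 14 and 26 (CFIm59 knockout) and 53 and 49 (between them). edgeR's exon-level test called 113 and 106 middle sites in the CFIm68 knockout and 0 and 6 in the CFIm59 knockout.

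A site minimum of 5% gave 3730 middle sites, of which 556 were higher and 472 lower in the CFIm68 knockout. Of the same 3730, 39 were higher and 76 lower in the CFIm59 knockout, and 980 and 763 between the knockouts. This minimum called 12 of 2202 first and middle pairs upstream in the CFIm59 knockout. Between the knockouts it called 93 of 2202 middle and last pairs downstream. A minimum of 15% gave 82 and 70, 6 and 19, and 151 and 108 of 560 middle sites. Its pairs, out of 512 of each kind, were 143 and 25, and 166 and 13, in the CFIm68 knockout. In the CFIm59 knockout 27 first and middle pairs went downstream, with 1 upstream and 36 downstream for middle and last. Between the knockouts they were 211 and 36, and 246 and 19. These minimums change which sites are members and how many, against 1427 middle sites and 1161 pairs of each kind in the main setting.

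A gene minimum of 500 reads gave 125 and 93 of 589 middle sites in the CFIm68 knockout and 198 and 131 between the knockouts. Its pairs, out of 498 of each kind, were 135 upstream for first and middle in the CFIm68 knockout. For middle and last they were 195 and 19 there. Between the knockouts they were 216 and 58, and 276 and 32. With 20 reads there were 2893 middle sites and 2278 pairs of each kind. The CFIm59 knockout then had 5 and 25 middle sites, 0 and 0 first and middle pairs, and 0 and 1 middle and last pairs. The CFIm68 knockout had 176 and 28 first and middle pairs and 19 middle and last pairs downstream. Without a filter beyond 1 read, 32 member genes were lower in total in the CFIm68 knockout.

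Leaving out 1 knockout line at a time gave 0 to 24 higher and 2 to 52 lower middle sites in the CFIm59 knockout. Its pairs ran over 0 to 5 upstream and 1 to 41 downstream for first and middle, and 0 to 4 and 5 to 50 for middle and last. First and middle pairs upstream in the CFIm68 knockout ran over 168 to 243 and middle and last pairs downstream over 22 to 33. Between the knockouts, pairs downstream ran over 56 to 85 and 32 to 45. Member gene totals ran over 55 to 123 lower in the CFIm59 knockout and 81 to 130 higher between the knockouts. With line numbers as a replicate block, 384 middle sites were higher and 278 lower between the knockouts, and pairs were 413 and 88, and 489 and 53. Same-numbered lines share only a number: their deviations correlated at 0.0181 over site shares. All other counts stayed within 1.5 times, among them those with sites within 100 nt merged (198 and 183 in the CFIm68 knockout). Depth limits single shares: the median member had 13 reads in CFIm59 knockout line 1.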

Other observations

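Other gene families held single called sites, beside 15.2% of all members that rose and 12.9% that fell in the CFIm68 knockout. Among 25 members in solute carriers 4 rose (16.0%) and 2 fell (8.0%). SLC16A10, an amino acid transporter, gave its middle site 75% and 79.6% in the CFIm68 knockout lines, 42.6% and 42.1% in the CFIm59 knockout lines and 47.3% in the control (log2 1.92, SE 0.55, adjusted p = 0.00223), with its first site 44302 nt upstream. SLC25A33, a mitochondrial pyrimidine nucleotide carrier, gave 83.3% and 89.0% in the CFIm68 knockout lines and 63.5% in the control (log2 1.87, SE 0.55, adjusted p = 0.00303). SLC19A1, a folate transporter, held 69.1% and 79.3% in the CFIm68 knockout lines and 78.7% in the control (adjusted p = 0.628). The calls of SLC16A10 and SLC25A33 were lost with DESeq2 (adjusted p = 0.0597 and 0.0968) and with edgeR's exon-level test (0.248 and 0.493). Of 30 zinc finger members 3 rose (10.0%) and 2 fell (6.67%). ZNF24 gave its downstream middle site 39.2% and 28.1% in the CFIm68 knockout lines and 19.7% in the control (adjusted p = 0.0189), a call lost without CFIm68 knockout line 1 (adjusted p = 0.205) and without either CFIm59 knockout line (adjusted p = 0.0598 and 0.061). ZNF207, a kinetochore and spindle protein, gave 26.0% and 32.4% in the CFIm68 knockout lines and 43.2% in the control (adjusted p = 0.0421), lost without CFIm68 knockout line 1 (adjusted p = 0.166) and without CFIm59 knockout line 1 or 2 (adjusted p = 0.0881 and 0.091). DESeq2 and the exon-level test called neither of these zinc finger sites (adjusted p = 0.118 and 0.0869 in ZNF24, 0.138 and 0.23 in ZNF207).

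Translation and phosphatase genes included middle sites that were not called between outer sites that were. Of 8 members in eukaryotic initiation factors 0 rose and 0 fell in the CFIm68 knockout (edgeR), beside 15.2% and 12.9% over all members. EIF4E, the cap-binding protein, gave its second of 4 sites 56.2% and 53.9% in the CFIm68 knockout lines, 39.9% and 43.3% in the CFIm59 knockout lines and 47.6% in the control (adjusted p = 0.382), while its last site held 0.73% and 0.913% in the CFIm68 knockout lines and 17.3% in the control (adjusted p = 7.9e-12). EIF2S3, a subunit of the factor that brings initiator tRNA, gave its middle site 43.4% and 47.5% in the CFIm68 knockout lines and 35.2% in the control (adjusted p = 0.0674). In PPP4R2, a regulatory subunit of protein phosphatase PP4, the middle site held 66.4% and 71.2% in the CFIm68 knockout lines and 58.4% in the control (adjusted p = 0.181). Its first site took 28.6% and 24.6% in the CFIm68 knockout lines, 0% and 1.69% in the CFIm59 knockout lines and 0.80% in the control (log2 5.39, adjusted p = 2.92e-13). The count of 0 in CFIm59 knockout line 1 allows a share of up to 2.91%. PPP2R1B, a scaffold subunit of protein phosphatase PP2A, fell at its downstream middle site, to 7.69% and 16.5% in the CFIm68 knockout lines, against 36.1% in the control (log2 -2.01, SE 0.54, adjusted p = 0.000947). Of 7 phosphatase members 1 rose (14.3%) and 2 fell (28.6%), and of 29 members in transmembrane protein genes 3 rose (10.3%) and 5 fell (17.2%). Over all members the shares were the same 15.2% and 12.9%. TMEM237 rose to 68.9% and 64.5% in the CFIm68 knockout lines, against 41.6% in the control (log2 1.49, SE 0.45, adjusted p = 0.00367), a call lost with DESeq2 (0.0692) and with the exon-level test (0.23).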
